A study of Mus musculus with 10 samples.

Results

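The myelin and oligodendrocyte genes described here are 9 genes of the myelin sheath and of the cell that makes it: Mbp, Mobp, Mal, Mag, Mog, Cnp, Cldn11, Ugt8a and Opalin. The genes were chosen with earlier results of these data known. Every non-control probe whose RefSeq accession on the array belongs to one of these symbols was then taken, whatever its measured values. This gave 14 probes of 56605 gene probes, for 9 of 23462 named genes. Hippocampal RNA was hybridised to 1-colour arrays from 2 groups of 5 mice, with 1 array per mouse. PGC-1αf/f mice carry a PGC-1α transgene in the Rosa26 locus that a floxed stop cassette keeps silent, and they lack Cre. They are called controls below, and mice are numbered by the replicate number of their array. nPGC-1α mice carry the same allele together with Eno2-Cre, which removes the cassette in neurons, so that the transgene is expressed with an IRES-eGFP reporter. Both groups were littermates on a C57BL/6 background and were labelled as males of 12 weeks, without any surgery or treatment. The comparison asks how gene expression in the hippocampus differs under basal conditions when neurons overexpress PGC-1α, which coactivates transcription factors of mitochondrial biogenesis. The labels give the cell type as neuron, yet the RNA came from hippocampal tissue, and oligodendrocyte, astrocyte and microglial markers were well above background on the arrays. The transgene is driven in neurons, whereas the 9 genes are expressed chiefly by oligodendrocytes.

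Oligodendrocytes wrap axons in layers of compacted membrane, which insulate the axon and let the action potential jump between gaps in the sheath. Compact myelin is held together by basic proteins and is rich in cholesterol and galactolipids, while adhesion proteins hold its inner wrap to the axon and tight junctions seal its layers. In the hippocampus most myelin lies in the fibre tracts that border the cell layers and in their outer layers. In samples of whole tissue, fewer oligodendrocytes and less RNA per oligodendrocyte cannot be told apart.

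Levels are the log2 of the processed fluorescence of a probe minus the log2 of the 75th percentile of its array, so that a level of 0 equals that percentile. A difference is the nPGC-1α mean less the control mean on this scale. A level depends on the probe as well as on the transcript, so probes were compared by their differences and not by their levels. Spots that the scanner software marked as outliers were left out of the fits and are given beside them.

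The arrays differed in ways that touch the results. The share of gene spots well above background ran from 74.5% to 81.5% in controls and from 67.2% to 73.4% in nPGC-1α mice, without overlap (two-sided exact permutation test, p = 0.00794, the smallest that 5 against 5 can give). On the first of 2 slides, which held 8 arrays, the groups lay in different rows, so that position and genotype cannot be told apart. The largest shares of spots marked as outliers were on replicate 1 of both groups, with 10.5% for the control and 11.6% for the nPGC-1α mouse. Y-linked transcripts were present in nPGC-1α mice 1, 3 and 5 and in control mouse 1, with Eif2s3y at levels of 1.18 to 1.43. They were near background on the other 6 arrays, with Eif2s3y at -8.86 to -6.16, although all mice were labelled male. Xist, an RNA of the inactive X chromosome of females, was at -5.80 to -4.91 on the arrays with Y-linked transcripts. On control mouse 5, without them, it was as low, at -5.34, and on the remaining arrays without them it was at -3.28 to -2.43. The 6 arrays without Y-linked transcripts go against their labels in sex, and whether their sample and genotype labels hold was not tested. The probe of Ppargc1a, which encodes PGC-1α, had a difference of 0.0035 (SE 0.085, adjusted p = 0.990). Whether this probe covers the part of the transcript carried by the transgene was not tested.

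All 14 myelin probes passed the filter on dim probes, and all 14 had a higher mean in nPGC-1α mice, beside 40.8% of the 39142 probes tested. With 1 probe per gene, 9 of 9 genes had a higher mean, with a median difference of 0.32, beside 43.3% of 17597 named genes and a median of -0.025 over these. None of the 14 probes passed an adjusted p of 0.05 in limma, which 0.00255% of all probes did, namely 1 probe of the predicted gene Gm33308, named after its value was seen (0.00568% of named genes). At an unadjusted p of 0.05, 3 of 14 probes were higher and 0 were lower, beside 3.39% and 8.52% of all probes. These were the second probes of Mog and Mobp and 1 of 3 probes of Mbp. With 1 probe per gene, 0 of 9 genes passed the unadjusted threshold, beside 8.21% of all named genes (3.18% higher and 5.03% lower). With the replicate number as a block, which was not taken to pair the mice, 6 were higher at that threshold, beside 4.39% of named genes. In that fit 0 passed an adjusted p of 0.05. The groups overlapped for all 14 probes, whereas they did not overlap for 2.87% of all probes and 2.36% of named genes. For most probes nPGC-1α mice 3, 4 and 5 lay above all controls, and nPGC-1α mice 1 and 2 lay among them.

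**Figure D1:**
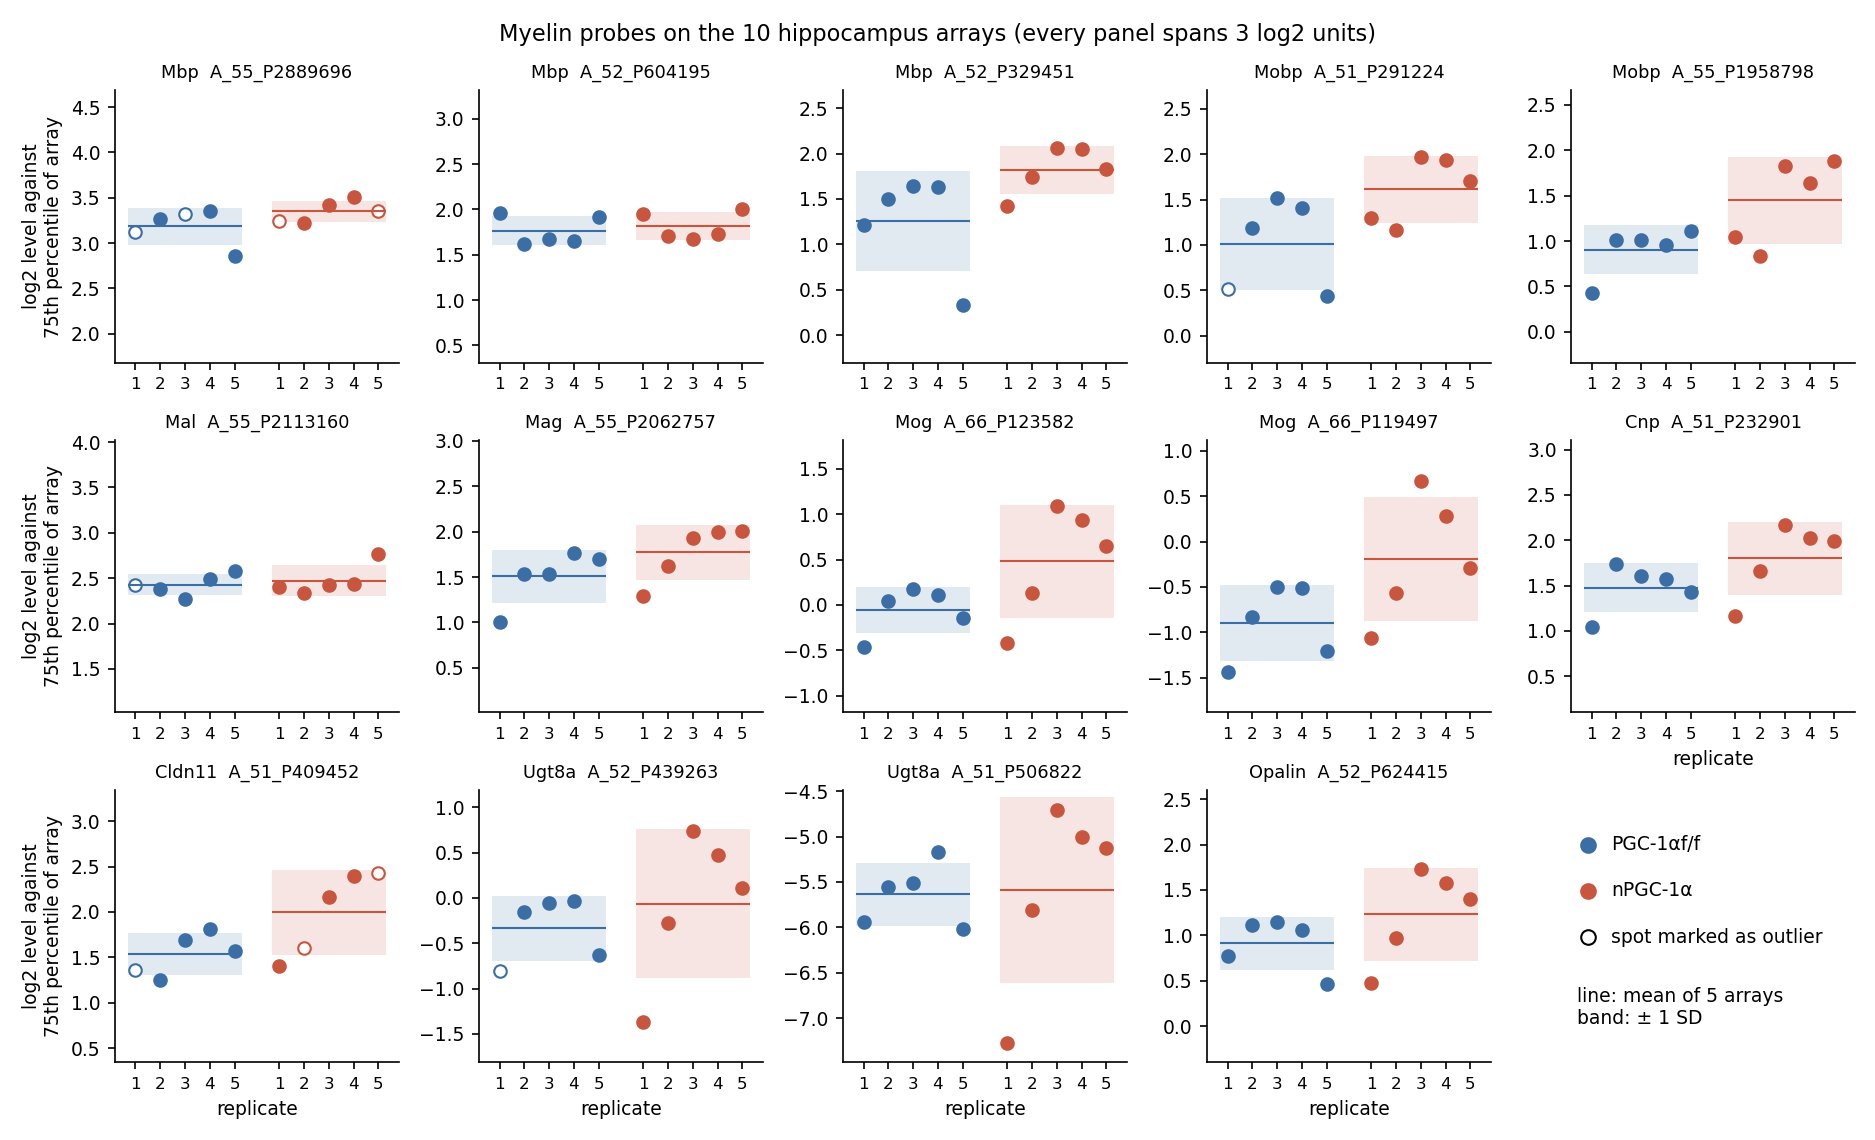
Level of each of the 14 myelin probes on the 10 arrays (y axis: log2 level against the 75th percentile of the array, 3 log2 units in every panel; x axis: replicate number), with the mean of 5 arrays as a line, ± 1 SD as a band and open points for spots marked as outliers. On most panels nPGC-1α replicates 3, 4 and 5 lie above all controls and replicates 1 and 2 lie among them, while Mal and Mbp probe A_52_P604195 are nearly flat.

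Mog encodes myelin oligodendrocyte glycoprotein, which lies on the outermost layer of the sheath. Its probe A_66_P123582 read -0.46, 0.05, 0.18, 0.10 and -0.14 in control mice 1 to 5 and -0.42, 0.13, 1.09, 0.94 and 0.65 in nPGC-1α mice 1 to 5. The last 3 nPGC-1α arrays were above every control, and nPGC-1α mouse 1 was close to the lowest of them. The difference was 0.53 (SE 0.27, adjusted p = 0.461). The other Mog probe, A_66_P119497, read -1.44, -0.84, -0.50, -0.52 and -1.21 in the controls and -1.07, -0.56, 0.67, 0.28 and -0.29 in the nPGC-1α mice. It showed the same 3 arrays on top, with a difference of 0.71 (SE 0.31, unadjusted p = 0.0465).

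Mag encodes myelin-associated glycoprotein, which faces the axon in the innermost wrap. It read 1.01, 1.54, 1.53, 1.76 and 1.70 in the controls and 1.30, 1.62, 1.93, 2.00 and 2.00 in the nPGC-1α mice, a difference of 0.26 (SE 0.18, adjusted p = 0.580). Again nPGC-1α mice 3 to 5 were above all controls. Cnp encodes a phosphodiesterase that keeps channels of cytoplasm open within the sheath. It read 1.04, 1.73, 1.61, 1.57 and 1.43 in the controls and 1.16, 1.66, 2.16, 2.02 and 2.00 in the nPGC-1α mice, a difference of 0.32 (SE 0.20, adjusted p = 0.540). Replicate 1 was the lowest array of each group for both genes.

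Among the basic proteins of compact myelin, Mbp gave unlike answers by probe. Mbp encodes myelin basic protein, which binds the cytoplasmic faces of the membrane to each other. Probe A_55_P2889696, which stands for the gene, read 3.12, 3.26, 3.32, 3.36 and 2.86 in the controls and 3.24, 3.23, 3.42, 3.51 and 3.35 in the nPGC-1α mice. Of its spots, 4 carried an outlier mark, and the difference was 0.23 (SE 0.17, adjusted p = 0.636) without these (n = 3 per group) and 0.17 (SE 0.11) with them. Without control mouse 5 it was 0.076. Probe A_52_P329451, with no marked spot, read 1.21, 1.5, 1.64, 1.63 and 0.33 in the controls and 1.42, 1.74, 2.06, 2.06 and 1.83 in the nPGC-1α mice. Its difference of 0.56 (SE 0.24, unadjusted p = 0.0416) included control mouse 5, which was far below the rest. Probe A_52_P604195, annotated to another Mbp accession, read 1.96, 1.61, 1.67, 1.66 and 1.92 in the controls and 1.95, 1.71, 1.67, 1.73 and 2.01 in the nPGC-1α mice, a difference of 0.049 (SE 0.11). Here replicates 1 and 5 were the highest arrays of each group, unlike on the other Mbp probes.

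Mobp encodes another basic protein of compact myelin. Probe A_51_P291224 read 0.51, 1.19, 1.52, 1.41 and 0.44 in the controls and 1.29, 1.17, 1.96, 1.94 and 1.71 in the nPGC-1α mice. The difference was 0.48 (SE 0.25, adjusted p = 0.485) without the marked spot on control mouse 1 and 0.60 (SE 0.25, unadjusted p = 0.0335) with it. Probe A_55_P1958798 read 0.43, 1.01, 1.01, 0.96 and 1.11 in the controls and 1.05, 0.83, 1.83, 1.64 and 1.89 in the nPGC-1α mice, a difference of 0.54 (SE 0.22, unadjusted p = 0.0314). Both probes put nPGC-1α mice 3 to 5 above every control. Mal, which encodes a small membrane protein that sorts lipids and proteins to myelin, read 2.42, 2.38, 2.27, 2.49 and 2.58 in the controls and 2.40, 2.34, 2.42, 2.44 and 2.77 in the nPGC-1α mice. Its difference was 0.043 (SE 0.11, adjusted p = 0.900), which is less than the SD of either group.

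Cldn11 encodes claudin-11, the tight junction protein between the layers of the sheath. It read 1.36, 1.26, 1.69, 1.81 and 1.57 in the controls and 1.40, 1.60, 2.16, 2.39 and 2.43 in the nPGC-1α mice. Its spot was marked on 3 arrays, and the difference was 0.41 (SE 0.25, adjusted p = 0.552) without these and 0.46 (SE 0.21) with them. Ugt8a encodes the enzyme that makes galactosylceramide, the main galactolipid of myelin. Probe A_52_P439263 read -0.80, -0.15, -0.06, -0.03 and -0.63 in the controls and -1.37, -0.28, 0.74, 0.47 and 0.11 in the nPGC-1α mice, so that nPGC-1α mice held both the highest and the lowest arrays. The difference was 0.16 (SE 0.37, adjusted p = 0.887) without the marked spot on control mouse 1 and 0.27 (SE 0.35) with it. The other Ugt8a probe, A_51_P506822, was dim and was not well above background on nPGC-1α mouse 1. Its difference was 0.052 (SE 0.42).

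Opalin encodes a transmembrane glycoprotein of oligodendrocytes. It read 0.77, 1.11, 1.15, 1.06 and 0.47 in the controls and 0.48, 0.97, 1.73, 1.58 and 1.40 in the nPGC-1α mice, a difference of 0.32 (SE 0.23, adjusted p = 0.610). Replicates 3 to 5 of the nPGC-1α group were again above all controls.

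**Figure D2:**
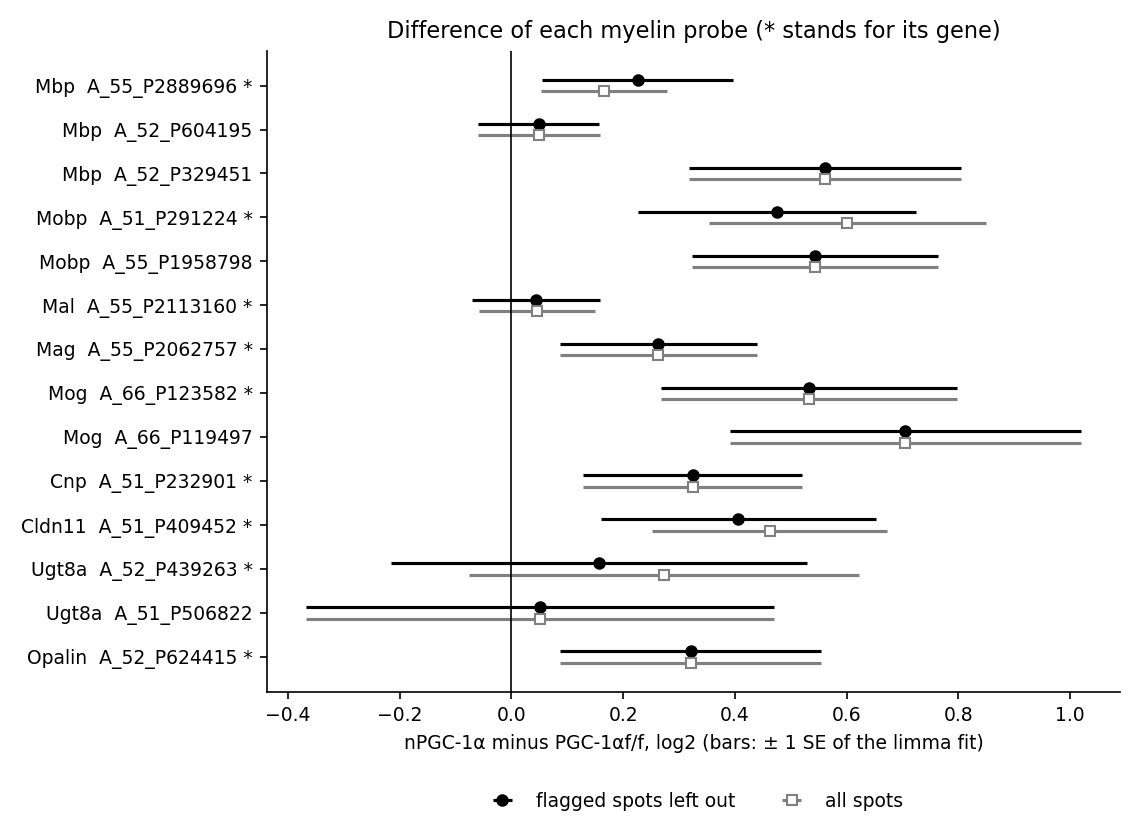
Difference of each of the 14 probes (x axis: nPGC-1α minus PGC-1αf/f in log2 units, bars ± 1 SE of the limma fit), with spots marked as outliers left out (filled circles) or kept (open squares). All 14 points lie above 0, from 0.049 for Mbp probe A_52_P604195 and 0.043 for Mal to 0.71 for Mog probe A_66_P119497.

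The size of the group difference depended on single arrays. The mean deviation of the 9 genes from their overall means, with all spots, was -0.47, -0.09, 0.01, 0.04 and -0.32 in control mice 1 to 5 and -0.41, -0.08, 0.50, 0.46 and 0.36 in nPGC-1α mice 1 to 5. Thus nPGC-1α mice 1 and 2 lay within the control range and the other 3 lay above it. Without nPGC-1α mouse 1, the median difference of the 9 genes was 0.48 and 5 genes (Mog, Mag, Cnp, Cldn11 and Opalin) were higher at an unadjusted p below 0.05, beside 3.15% of named genes in that fit, with the lowest adjusted p at 0.240 for Mog. Without nPGC-1α mouse 4 the median difference was 0.21. The sign of Ugt8a turned without nPGC-1α mouse 3 (-0.044), and that of Mal turned without nPGC-1α mouse 5 (-0.030) or control mouse 3 (-0.0087). The other 7 genes had a positive difference whichever array was left out.

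Differences within slides and within arrays alike in Y-linked transcripts had mostly the same sign. With all spots, the 4 against 4 arrays of slide 1 gave a median difference of 0.25, with 9 of 9 genes higher (Ugt8a was at -0.026 there once its marked spot was left out), and the single pair on slide 2 gave 0.75, with 9 of 9 higher. Among the 4 PGC-1αf/f and 2 nPGC-1α arrays without Y-linked transcripts the median was 0.32, with 8 of 9 genes higher and Mal at -0.041. Among the 1 PGC-1αf/f and 3 nPGC-1α arrays that carried them it was 0.64, with 9 of 9 higher. The only control on slide 2 was mouse 5, and the only control with Y-linked transcripts was mouse 1. Their mean deviations, -0.32 and -0.47, were the lowest of the controls, so the medians of 0.75 and 0.64 each rest on a low control. When both arrays numbered 1 were left out, a choice made after seeing the data, the median was 0.47, and 4 genes (Mog, Cnp, Cldn11 and Opalin) were higher at an unadjusted p below 0.05, beside 3.08% of named genes in that fit.

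Apart from Mal, the levels of the genes varied together from mouse to mouse. Over the 10 arrays and with all spots, the 36 gene pairs had a median Pearson r of 0.756, and of 0.724 after the group means had been subtracted. These correlations are descriptions, since all genes share the same 10 RNA samples and the same scaling. Of the genes, Mog followed the others most closely, with r = 0.969 between its probe A_66_P123582 and the mean of the other members after the group means had been subtracted. Ugt8a reached 0.948, Cnp 0.931 and Opalin 0.921. Among the 28 pairs without Mal the lowest r, with group means subtracted, was 0.340, whereas Mal had a median r of 0.079 with the others. The genes also differed in the size of this variation. For each unit of the mean of the other members, the fitted change on the probe that stands for the gene was 2.13 for Ugt8a, 1.53 for Mog, 1.23 for Opalin, 1.1 for Mobp, 1.00 for Cnp, 0.93 for Cldn11, 0.75 for Mag, 0.32 for Mbp and 0.05 for Mal. It depended on the probe for Mbp, with 0.78 on A_52_P329451 and -0.24 on A_52_P604195. As measured, with the group difference included, the whole range from the lowest to the highest array was 4.31-fold for Ugt8a (probe A_52_P439263). It was 2.93-fold for Mog (probe A_66_P123582) and 1.41-fold for Mal.

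**Figure D3:**
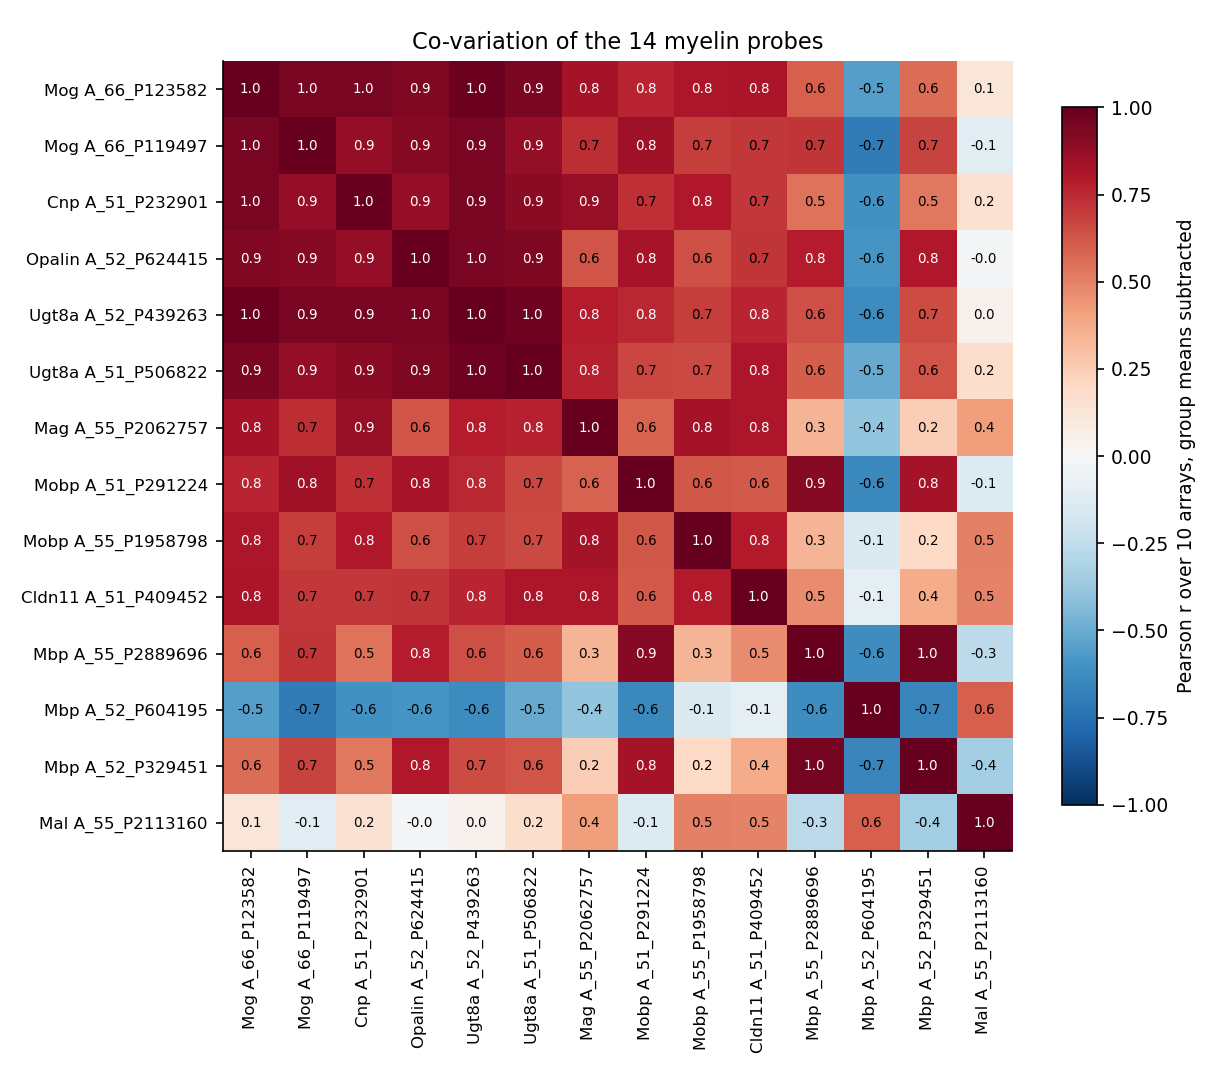
Pearson r between all pairs of the 14 myelin probes over 10 arrays after subtraction of the group means, with all spots (red: positive, blue: negative, colour scale from -1 to 1). The probes of Mog, Cnp, Opalin and Ugt8a form the tightest group, and Mbp probe A_52_P604195 and Mal stand apart.

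Probes of the same gene did not always agree. The pairs of Mog, Ugt8a and Mobp probes correlated at r = 0.965, 0.957 and 0.764 over the 10 arrays, and Mbp probes A_52_P329451 and A_55_P2889696 at 0.962. Mbp probe A_52_P604195 ran against both, at r = -0.427 and -0.448. On control mouse 5 it read 1.92, above its mean, while A_52_P329451 read 0.33, its lowest value. With group means subtracted these values were -0.661 and -0.618. Among 3967 other genes with at least 2 probes detected on all arrays, the brightest pair had a median r of 0.237 on that scale, 34.9% of pairs were below 0 and 5.24% were below -0.6. Which transcripts or transcript ends the probes cover was not tested.

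**Figure D4:**
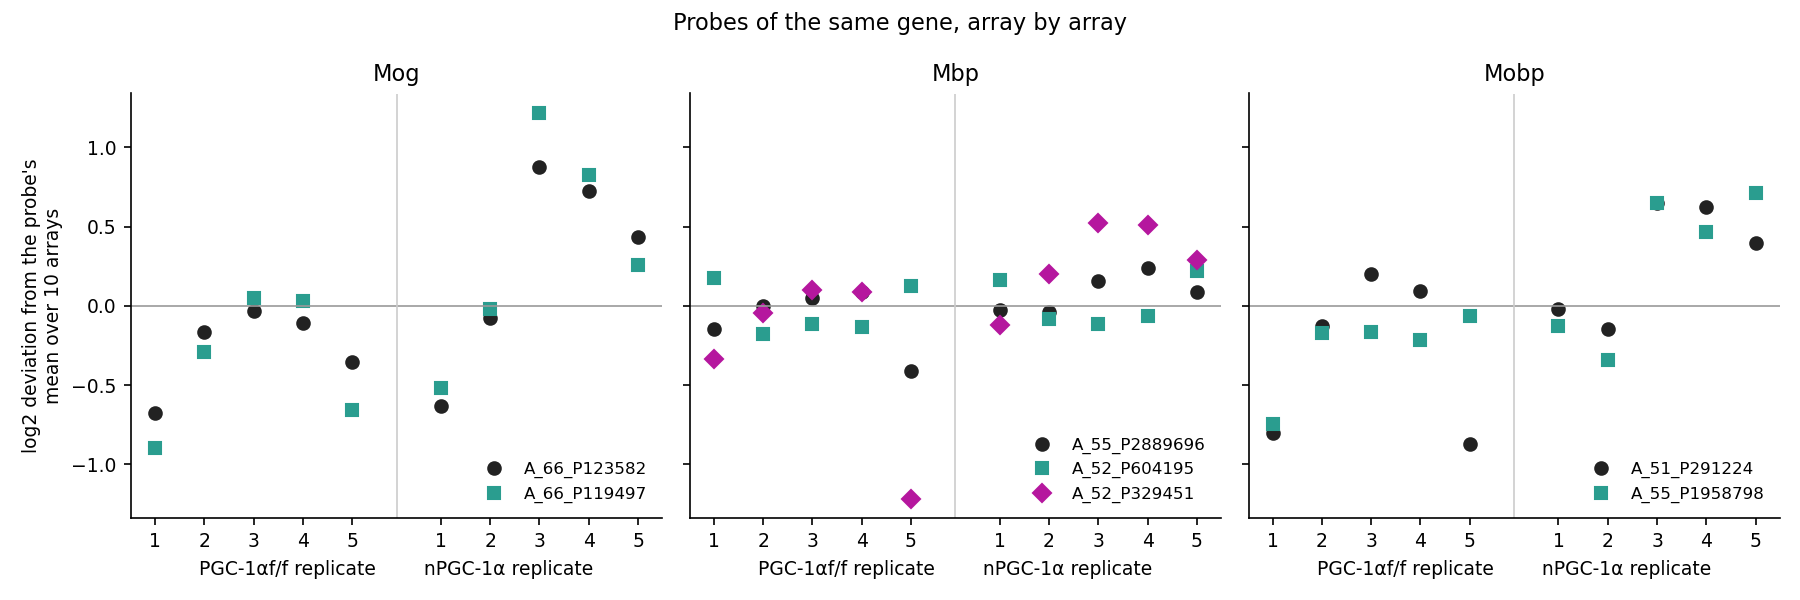
Deviation of each probe from its own mean over 10 arrays (y axis, log2) for the probes of Mog, Mbp and Mobp (x axis: replicate of each group, all spots). The Mog probes follow each other, Mbp probe A_52_P604195 stays near 0 while A_52_P329451 spreads over more than 1 log2 unit, and the Mobp probes part on control mouse 5, where A_51_P291224 read 0.44 and A_55_P1958798 1.11.

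The starts of these genes were set beside their co-variation. From the RefSeq table of build GRCm38.p6, 10 windows for 8 of the 9 genes were used, 3 of them for Mag and 1 for each other gene. Mbp is not among these 8 genes, and no window of it is counted or shown. The 250 bases before the start are shown for 5 of the genes that varied together, all of which held a motif, and for Mal, which did not vary with them. Cldn11 and Ugt8a also varied with the others, held no motif and are not shown. Capitals mark ACAAAG or ACAATG, letters bound by SOX factors, CTGGCAC or CTGGTAC, letters of the MYRF motif, and CATCTG, an E-box, each searched on both strands. None of the motifs contains another. The E-box CAGCTG and the TATA letters TATAAA were also searched and were in none of the 8 genes' windows.
Mog, chr17:37023399-37023648, minus strand: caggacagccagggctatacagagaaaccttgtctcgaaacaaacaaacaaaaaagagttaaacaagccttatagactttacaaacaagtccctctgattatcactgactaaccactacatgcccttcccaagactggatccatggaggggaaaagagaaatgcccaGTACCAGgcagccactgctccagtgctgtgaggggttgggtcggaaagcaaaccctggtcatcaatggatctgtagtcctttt
Cnp, chr11:100574689-100574938, plus strand: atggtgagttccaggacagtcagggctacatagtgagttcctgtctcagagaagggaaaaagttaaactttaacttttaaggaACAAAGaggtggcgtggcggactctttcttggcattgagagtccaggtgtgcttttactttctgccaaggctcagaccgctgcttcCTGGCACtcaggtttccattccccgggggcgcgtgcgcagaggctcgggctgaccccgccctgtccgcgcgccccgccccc
Opalin, chr19:41077114-41077363, minus strand: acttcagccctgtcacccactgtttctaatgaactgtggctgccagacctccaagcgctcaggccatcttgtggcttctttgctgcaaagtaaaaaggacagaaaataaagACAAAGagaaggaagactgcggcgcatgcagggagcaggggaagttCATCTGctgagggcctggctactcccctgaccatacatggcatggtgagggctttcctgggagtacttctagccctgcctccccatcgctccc
Mobp, chr9:120149492-120149741, plus strand: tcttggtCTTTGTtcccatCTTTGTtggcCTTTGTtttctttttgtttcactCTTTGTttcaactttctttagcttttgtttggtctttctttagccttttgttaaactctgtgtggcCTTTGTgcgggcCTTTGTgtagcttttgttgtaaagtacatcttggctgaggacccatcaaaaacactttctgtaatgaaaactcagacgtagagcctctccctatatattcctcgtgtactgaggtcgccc
Mag, chr7:30914923-30915172, minus strand: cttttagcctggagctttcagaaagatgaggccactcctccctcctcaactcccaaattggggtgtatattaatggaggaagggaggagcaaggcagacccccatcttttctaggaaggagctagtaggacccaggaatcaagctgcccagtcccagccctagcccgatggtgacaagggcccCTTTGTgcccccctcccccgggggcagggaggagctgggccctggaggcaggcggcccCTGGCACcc
Mal, chr2:127656696-127656945, minus strand: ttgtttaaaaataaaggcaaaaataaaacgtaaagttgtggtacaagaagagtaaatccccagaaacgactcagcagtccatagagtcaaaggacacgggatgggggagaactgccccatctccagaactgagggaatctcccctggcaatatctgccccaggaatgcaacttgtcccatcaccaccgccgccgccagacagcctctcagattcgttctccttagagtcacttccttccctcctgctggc

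ACAAAG, the SOX letters, was in 5 of these 10 windows, from 4 of the 8 genes (Mag, Mobp, Cnp and Opalin), and in 16.5% of 32851 windows of all genes. Of the windows of Mag, 2 overlap and hold the same letters, and the one at chr7:30914322-30914571 held none of the motifs. The window of Mobp held 6 copies on the strand opposite to the gene. ACAATG was in none of the 8 genes' windows and in 10.7% of all windows. The MYRF letters CTGGCAC were in 3 windows, from Mag and Cnp, and in 4.19% of all windows, and CTGGTAC was in that of Mog and in 1.83% of all windows. CATCTG was in the window of Opalin and in 14.4% of all windows. The windows of Mal, Cldn11 and Ugt8a held none of these letters, and Cldn11 and Ugt8a varied with the genes that held them. With group means subtracted, their r with the mean of the other members was 0.809 and 0.948. Such matches describe the sequence in these windows only, and binding was not measured.

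The genes outside the list whose levels were most like the mean of the 9 genes were then read out. Unlike the correlations among members above, this mean left out marked spots. On control mouse 1 it therefore rested on Mog, Mag, Cnp and Opalin alone. Over 13585 named genes with complete values on all 10 arrays, the median r with the group means subtracted was -0.219. Of these, 21 genes exceeded 0.9, of which 3 (Mog, Cnp and Opalin) were members and thus part of that mean. Only 4 members had complete values, these 3 and Mag, which reached 0.860. The 8 closest others were Tmem125 (r = 0.972), Bfsp2 (0.969), Chst3 (0.954), Enpp6 (0.948), Mdk (0.948), Itfg2 (0.941), Ndufaf1 (0.934) and Gal3st1 (0.931). Enpp6, a choline phosphodiesterase, marks newly formed oligodendrocytes, and Gal3st1 encodes the enzyme that turns galactosylceramide into sulfatide. Their differences between groups were unlike. Enpp6 had 0.69 (SE 0.38), Tmem125 0.52 (SE 0.26), Chst3 0.50 (SE 0.32) and Gal3st1 0.34 (SE 0.17), while Bfsp2 had -0.068 (SE 0.20), Mdk -0.0035 (SE 0.13), Itfg2 0.093 (SE 0.11) and Ndufaf1 -0.10 (SE 0.094). None passed an adjusted p of 0.05.

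Other genes of the oligodendrocyte lineage did not all share the higher mean. Of 27 other genes of mature oligodendrocytes and myelin, 15 had a higher and 12 a lower mean in nPGC-1α mice, with a median difference of 0.068. At an unadjusted p of 0.05, 0 were higher and 1 was lower, namely Anln, an actin-binding protein of the sheath, at -0.26 (SE 0.11). The next by p were Tspan2, a tetraspanin, at 0.39 (SE 0.19), Tmem125 at 0.52, and Ermn, a cytoskeletal protein of the sheath, at -0.27 (SE 0.14). The median turned to -0.028 without control mouse 1. From array to array, however, the mean deviation of this list followed that of the 9 genes, given as a description. Over 10 arrays r was 0.826 (0.838 with group means subtracted) and Spearman's rho was 0.903.

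Of 16 transcription factors of the lineage, 14 were tested, 8 had a higher mean and the median difference was 0.070. Nkx6-2, a homeobox factor of oligodendrocytes, had 0.42 (SE 0.17, unadjusted p = 0.0321). Nkx2-2, which acts in the differentiation of precursors, had 0.53 (SE 0.25) on a dim probe. Sox5 had -0.15 (SE 0.09) and Sox8 -0.26 (SE 0.17). Of 16 genes of precursors and newly formed oligodendrocytes, 15 were tested, 8 had a higher mean and the median was 0.017. Cnksr3, a scaffold protein, was the only one below an unadjusted p of 0.05, at 0.67 (SE 0.23), followed by Enpp6, by Ptprz1, a receptor phosphatase, at -0.15 (SE 0.09), and by Gpr17, a receptor of committed precursors, at 0.30 (SE 0.19).

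Lipid genes were read next. Of 12 genes of myelin galactolipids and very long chain lipids, 10 were tested and 7 had a higher mean, with a median of 0.057. Cers2, which makes very long chain ceramides, had 0.71 (SE 0.26, unadjusted p = 0.0213) on a dim probe, and Gal3st1, Elovl1, a fatty acid elongase, and Fa2h, which hydroxylates fatty acids of galactolipids, had 0.34, 0.23 and 0.39. The mean deviation of this list followed that of the 9 genes from array to array (r = 0.928, and 0.903 with group means subtracted). Of 21 genes of cholesterol synthesis and its control, 18 had a higher mean, the median was 0.14, and 4 were higher at an unadjusted p of 0.05, beside 3.18% of named genes. Insig1, which holds the sterol sensor in the endoplasmic reticulum, had 0.60 (SE 0.17). Its probe was also dim, with mean levels of -4.05 in controls and -3.45 in nPGC-1α mice. Sc5d, a desaturase of the last steps, had 0.28 (SE 0.10). Srebf2, the main transcription factor of the pathway, had 0.23 (SE 0.09), and Mvd, a decarboxylase of the mevalonate steps, had 0.28 (SE 0.12). None passed an adjusted p of 0.05, the lowest being 0.222 for Insig1. This list followed the 9 genes only weakly from array to array (r = 0.254), and not after the group means had been subtracted (r = -0.064). All brain cells make cholesterol.

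Of 16 axonal and inhibitory partners of myelin, 15 were tested, 13 had a higher mean and the median was 0.26. Nfasc, an adhesion molecule of the node and its flanks, had 0.50 (SE 0.18, unadjusted p = 0.0163), and Rtn4r and Lingo1, receptor components for inhibitors from myelin, had 0.26 (SE 0.14) and 0.32 (SE 0.17). Cadm3, an axonal adhesion molecule, had 0.27 (SE 0.15). The mean deviation of these genes, most of which neurons express, showed little relation to that of the 9 genes over the arrays. Here r was 0.0397, and -0.273 with group means subtracted. Of 7 peripheral myelin genes 5 were tested, 2 had a higher mean and the median was -0.11, with Egr2, a transcription factor that neurons also express, at 0.37 (SE 0.28), Cdh19 at 0.24, Ncmap at -0.16 and Prx at -0.12.

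**Figure D5:**
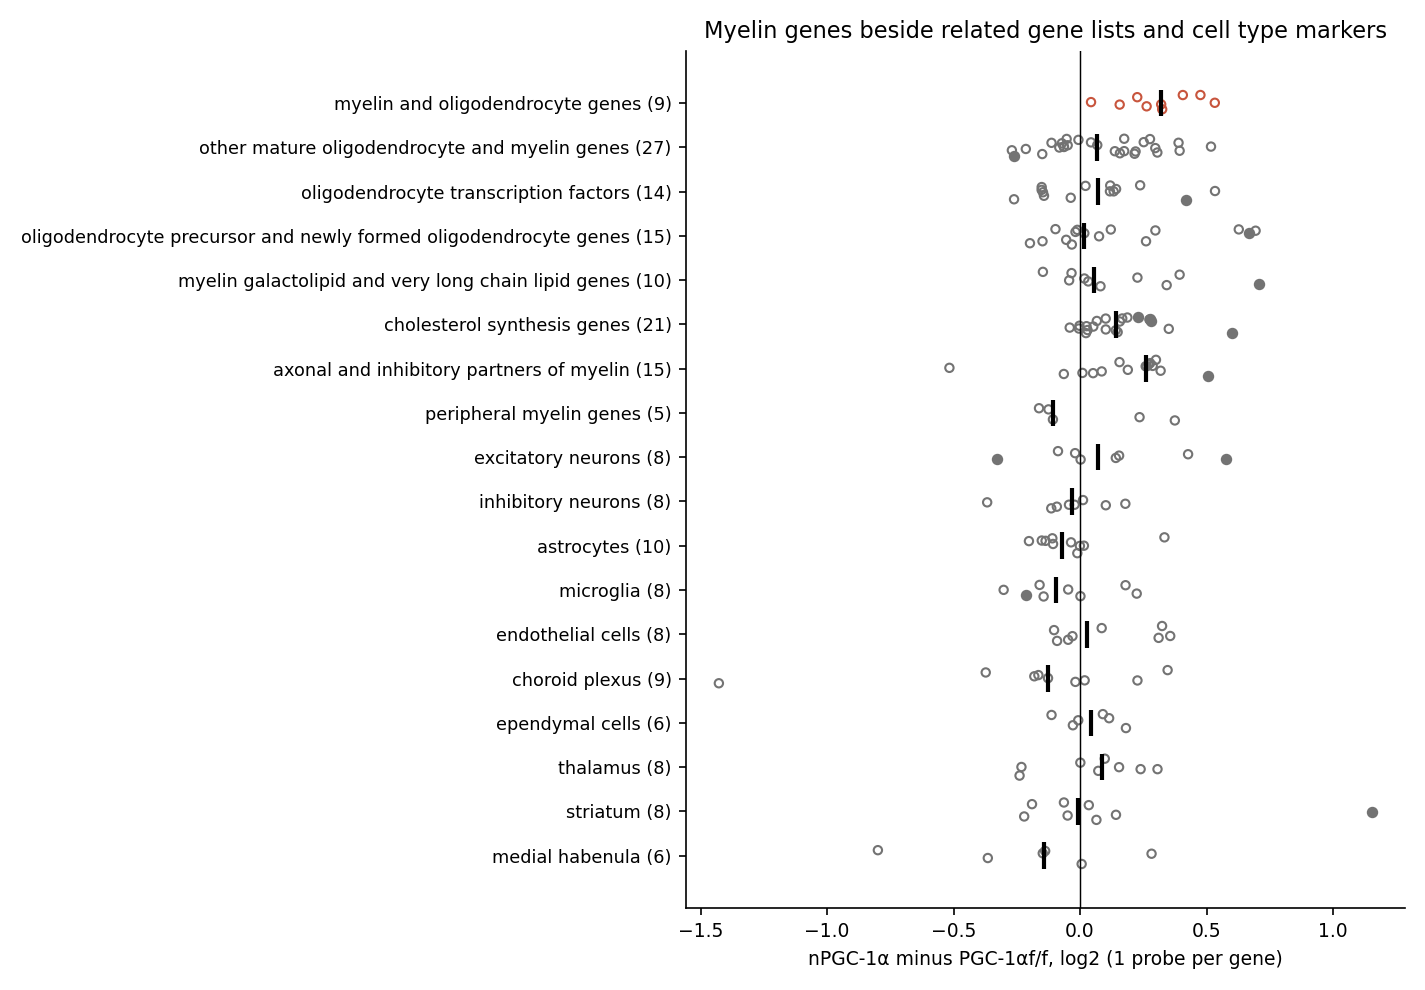
Difference between groups (x axis: nPGC-1α minus PGC-1αf/f, log2, 1 probe per gene) for the 9 myelin genes (red) and for related lists and cell type markers (grey), with the number tested in brackets, filled points for an unadjusted p below 0.05 and a bar at the median. The 9 genes all lie above 0 with a median of 0.32, while the other mature oligodendrocyte genes spread to both sides of 0.

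Markers of other cell types and of neighbouring tissue were read beside these values. The median difference was 0.072 for 8 markers of excitatory neurons, -0.033 for 8 of inhibitory neurons, -0.071 for 10 of astrocytes, -0.095 for 8 of microglia and 0.028 for 8 of endothelial cells. For neighbouring regions it was 0.085 for the thalamus, -0.0073 for the striatum and -0.14 for the medial habenula. None of these markers passed an adjusted p of 0.05. Choroid plexus and ependymal markers moved most with the 9 genes over the arrays. The mean deviation of 9 choroid plexus markers ran from -1.22 to 1.61 in the controls and from -0.79 to 2.40 in the nPGC-1α mice, highest on nPGC-1α mouse 3, with r = 0.475 to the 9 genes. That of 6 ependymal markers ran from -0.84 to 0.70 and from -0.27 to 0.42, with r = 0.504. The medians of these lists differed between the groups by -0.13 and 0.042. The share of spots marked as outliers also moved with the 9 genes (r = -0.604), as did the 75th percentile of the array (r = 0.615). The part of these markers, of these array measures and of the position on the slide in the higher means was not tested.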

How the data were processed

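Hippocampal total RNA from 10 mice, 5 per genotype, was labelled with Cy3 and hybridised to 1 array each. Groups and replicate numbers came from the labels. The deposited scanner files, written by Feature Extraction 11.5.1.1 per the file headers, hold an intensity per spot after subtraction of background. The authors also deposited a table of log2 values, used as an alternative. Control spots were dropped, as were spots carrying an outlier mark. Replicate spots were averaged in log2 units and scaled by subtracting each 75th percentile. The 39142 probes tested had every array of 1 group well above background and at least 3 values per group. RefSeq names (GRCm38.p6) matched 33767 of 56605 probes. A gene with several tested probes is represented by the brightest on average. Differences were tested in limma 3.58.1 (R 4.3.3) with lmFit and eBayes, two-sided, with Benjamini-Hochberg adjustment over all probes, on a pipeline tested on simulated data. Summaries used Python 3.11.15, pandas 2.3.3 and scipy 1.17.1.

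The genes, lists, motifs and tests were chosen with earlier results of these data known. Named genes are the 9 members, the 4 genes with the lowest p in each related list and the 8 genes most like the members. Of the related lists, 2 genes are not reported here. The number of arrays limits the precision. Each array is labelled as a separate sample, and p-values measure the spread between these arrays.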

Additional observations from a re-analysis of the deposited data

Results flagged for a closer look

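Of 31 sets of 4 or 5 arrays of 1 group that were examined, 3 held an array far from the others, and chance gives about 1 in 20. Mobp probe A_55_P1958798 read 0.43 on control mouse 1 and 0.96 to 1.11 on the remaining controls. Mal read 2.77 in nPGC-1α mouse 5, where the rest of its group gave 2.34 to 2.44. The share of spots marked as outliers was 10.5% on control mouse 1 and 0.192% to 3.05% on the remaining controls.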

How the results depend on the processing

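Results were recomputed under 18 alternatives and with each of 10 arrays left out. The median difference of the 9 genes stayed positive, at 0.22 (slide 1 only) to 0.47 (both arrays numbered 1 left out) and at 0.21 to 0.48 with 1 array left out, and in none of these did a member pass an adjusted p of 0.05. Members at an unadjusted p of 0.05 numbered 0 in the fit reported, beside 8.21% of all named genes. They numbered 0 to 5 with 1 array left out, 1 with Y-linked transcripts as a block, 1 on the arrays without them (an alternative chosen after seeing the data), 1 with marked spots kept, 1 with quantile normalisation, 1 with normexp, 2 with the authors' log2 values, 2 with the mean of all probes and 4 without both arrays numbered 1. In the fits with 5 and 4 members, 3.15% and 3.08% of named genes were higher at this threshold. For the fits with 1 or 2 members that share is not given. Over all probes, in either direction, 4387 of 39142 passed this threshold with the Y block and 1636 on the arrays without Y-linked transcripts. Such probes numbered 4856 of 40766 with marked spots kept and 4620 of 39142 with quantile normalisation. They numbered 4577 of 39142 with normexp and 4745 of 39183 with the authors' values. Mal turned to -0.041 with the Y block and on arrays without Y-linked transcripts, and ranged from -0.030 to 0.095 with 1 array left out. Ugt8a turned to -0.026 on slide 1 only and ranged from -0.044 to 0.48. The median of the other mature oligodendrocyte genes turned to -0.022 on slide 1 only and to -0.020 on arrays without Y-linked transcripts, and ranged from -0.028 to 0.19. Of these genes 1 (Anln, which was lower) had an unadjusted p below 0.05 in the fit reported, beside 8.21% of all named genes in either direction. Under the alternatives such genes were counted in either direction, without the share of all named genes in the same fit. They numbered 0 to 6 with 1 array left out (6 without nPGC-1α mouse 1) and 0 with the authors' values, marked spots kept or median centring. There were 2 with the Y block, the slide block or the mean of probes, 3 with the intensity trend or normexp and 7 without both arrays numbered 1. The cause was not tested.

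Over all probes, 1 passed the adjusted threshold, 0 to 3 with 1 array left out, 0 with the Y block, slide block, intensity trend, normexp, the percentile over detected probes, the filter on all 10 arrays or without both arrays numbered 1, 2 on arrays without Y-linked transcripts, 10 with array weights, 40 with median centring and 4619 with no filter. At the unadjusted threshold 4662 passed, 3102 to 6034 with 1 array left out, 1636 on arrays without Y-linked transcripts and 10748 with no filter. Of these calls 28.5% were higher, 38.6% with normexp and 63.2% with no filter. The median pairwise r, recomputed under 10 of the alternatives and with each array left out, was 0.61 to 0.85.

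With the replicate number as a block, 6 members (Mog, Mag, Mobp, Cnp, Cldn11 and Ugt8a) were higher at an unadjusted p below 0.05, beside 4.39% of named genes. Of the members 0 passed an adjusted one, and their median difference was 0.32. In either direction, 5 other mature oligodendrocyte genes passed the unadjusted threshold, as did 6486 of 39142 probes in all. The adjusted one was passed by 0 probes. Arrays with the same number correlated at 0.078 to 0.356 in their deviations, and not every array correlated best with its own number, so the numbers were not taken to pair the mice. Dim probes, such as the second of Ugt8a, are limited by signal over background.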
